A study of Rattus norvegicus with 12 samples.

Results

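The genes described here are the axon guidance ligands and receptors of the count table: the semaphorins of classes 3 to 7, the plexins, the ephrins and their Eph receptors, the Slit and Robo genes, the netrins with Dcc and the Unc5 receptors, the neuropilins and Islr2. They were chosen by gene name, and a member needed 10 or more counts in at least 3 of the 12 libraries. Of the 28727 named entries of the table, 71 had such a name and 65 of those 71 reached this minimum. Plxnb3, Robo3, Slit3, Epha6, Sema5b and Ephb4 did not. All 65 also passed the filter on low counts that the test used, 35 of them ligands, 29 receptors, and Islr2. Epha3 reached the minimum through the libraries labelled ChREBPβ alone, with at most 8 counts in any GFP library, so it had to be higher there to be counted at all.

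The cells were INS-1 832/13, a rat insulinoma line that secretes insulin, transduced with an adenovirus and cultured for 48 h. The control virus expressed GFP and the other virus expressed ChREBPβ, a shorter form of the transcription factor ChREBP, which responds to glucose; it was the mouse protein tagged with mCherry. Cells with either virus were kept in 2 mM or in 11 mM glucose, which gave 4 groups of 3 libraries. The groups are named by their labels. All results come from a single tumour-derived line given ChREBPβ by a virus. The p-values rest on the spread between libraries within a group, estimated over the 4 groups together. The labels do not say that the 3 libraries of a group came from separate cultures, while a study legend speaks of independent experiments.

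Axon guidance cues are secreted or membrane-bound proteins that attract or repel growing axons through receptors on the growth cone, which reshape the actin of the cell. The same families work outside the nervous system. In islets, ephrin-A and EphA proteins signal between neighbouring β-cells and bear on insulin secretion, and Slit and Robo proteins bear on islet architecture and β-cell survival.

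Library totals on named genes ran from 25754488 to 32938546 counts with GFP at 2 mM, from 36219167 to 46654823 with GFP at 11 mM, from 28595982 to 57726412 with ChREBPβ at 2 mM and from 57088794 to 60531215 with ChREBPβ at 11 mM. Depth thus moved with the groups. A count of 10 corresponded to 0.367 CPM in the smallest library and to 0.171 CPM in the largest. Levels are counts relative to the library total (CPM), scaled by edgeR's TMM factors, which express a gene relative to the bulk of the other genes and not as RNA per cell. A gene was called when its Benjamini-Hochberg adjusted p from edgeR's quasi-likelihood test was under 0.05 and its change was at least 1.2-fold. Log2 fold changes are ChREBPβ over GFP unless stated otherwise, and SE is their standard error.

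The rat gene of ChREBP, Mlxipl, was read in every library. It was at 240.3, 251.8 and 277 CPM with GFP and at 203.3, 211.8 and 198.7 CPM with ChREBPβ in 2 mM glucose, and at 201.8, 212.4 and 207.5 CPM and 200.6, 180.7 and 182.7 CPM in 11 mM glucose. It was thus not higher in the libraries labelled ChREBPβ, called lower at 2 mM (log2 -0.33, SE 0.05 by edgeR, adjusted p = 2.03e-05) and not called at 11 mM (log2 -0.14, SE 0.05 by edgeR, adjusted p = 0.0295). The virus carries the mouse sequence and the counts are on rat genes, so whether reads from the virus were counted here is not known and Mlxipl does not verify the labels. Txnip and Pklr, known targets of ChREBP, were higher with ChREBPβ at both levels. Txnip was at 24.34 to 27.66 CPM with GFP and 448.4 to 471.7 CPM with ChREBPβ in 2 mM glucose, and at 334.5 to 370.3 CPM and 658.8 to 677.3 CPM in 11 mM glucose. Pklr was at 126.1 to 133 CPM and 405.5 to 425.6 CPM in 2 mM glucose, and at 193.2 to 222 CPM and 441.9 to 449.2 CPM in 11 mM glucose. All directions below rest on the labels.

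The line was checked against cell type markers. The summed level of 10 β-cell markers, to which Ins1 gave most, was 15300, 16100 and 17100 CPM in GFP cells at 2 mM and 12600, 11600 and 12500 CPM in GFP cells at 11 mM. It was 6440, 6560 and 6530 CPM in ChREBPβ cells at 2 mM and 5480, 5850 and 5600 CPM in ChREBPβ cells at 11 mM. The β-cell marker sum was therefore lower in every ChREBPβ library than in any GFP library. Within it Slc2a2 was called higher with ChREBPβ at both glucose levels (log2 0.498 and 0.464), Neurod1 was called lower at 2 mM alone, and G6pc2 had at most 2 counts in any library. The 7 markers of other islet cells, most of it Gcg, summed to between 1590 and 1720 CPM in the GFP libraries and to between 431 and 503 CPM in the ChREBPβ libraries. The 7 neuronal markers, all tested, Map2 having the highest CPM, lay between 522 and 596 CPM with GFP and between 488 and 514 CPM with ChREBPβ. Within this sum the genes moved apart, with Tubb3 called higher at both glucose levels (log2 0.77 and 0.64) and Map2 (-0.82 and -0.72), Nefl (-1.105 and -1.065) and Snap25 (-0.549 and -0.395) called lower at both. The 7 Schwann cell markers, with Ncam1 the most abundant by CPM, summed to between 99.2 and 128 CPM with GFP and to between 73.8 and 82.5 CPM with ChREBPβ, with Sox10 at no more than 2 counts in any library. Endothelial markers, of which 6 of 7 were in the table and Esam had the highest CPM, summed to between 42.5 and 49.5 CPM in the GFP libraries and to between 52.8 and 61 CPM in the ChREBPβ libraries. Fibroblast markers (7 of 8 in the table, with Pdgfra the highest) summed to between 7.02 and 8.81 CPM with GFP at 2 mM and to between 3.85 and 5.62 CPM in the other groups. Pdgfra was called lower at 2 mM (log2 -1.116) and not called at 11 mM, and Pdgfrb, at no more than 1 count in any GFP library, was between 0.41 and 1.01 CPM in the ChREBPβ libraries and called higher at both levels. Immune markers (6 of 6, Cd68 the highest) summed to between 0.478 and 0.554 CPM with GFP and between 0.784 and 1.4 CPM with ChREBPβ in 2 mM glucose, and to between 0.509 and 0.973 CPM and 0.772 and 1.07 CPM in 11 mM glucose, where the groups overlapped. Cd68 was called higher at 2 mM alone (log2 1.042, edgeR adjusted p = 0.0243), and Ptprc had 0 counts in all 12 libraries. The part of these marker shifts in the results that follow was not tested. In such bulk RNA, fewer cells of a kind and less RNA per cell cannot be told apart.

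Promoter windows were looked at because ChREBP and its partner bind E-box sequences. RefSeq windows (GRCr8) of 300 bases, from 250 bases before to 50 after the start of the gene, matched 50 of the 65 members, 1 of them with a pair of windows. No window was matched for Efnb3, Epha4, Ntn1, Plxna1, Plxna4, Sema3a, Sema3b, Sema3f, Sema4d, Sema4g, Sema5a, Slit1, Slit2, Unc5c and Unc5d. The E-box CACGTG, which reads the same on both strands, was present in 5 of the 51 member windows (9.80%) and in 2148 of all 33469 windows of that length (6.42%). Among members called higher with ChREBPβ at both glucose levels it was in 3 of 17 windows, those of Epha8, Sema3e and Sema4b. It was in 0 of 16 windows of members called lower at both levels, and the other matches were in Efna5 and Ntn3, which were called at neither level. The longer pattern of a carbohydrate response element, CANGNG and CNCNTG spaced by 5 bases, was in 0 of the 51 member windows and in 188 of all windows (0.562%). A match is a description of the letters and not a binding site.

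The 3 windows with an E-box whose genes rose are printed with the E-box in capitals, beside those of Islr2 and Efna3, which rose strongly and whose windows held neither pattern. The Epha8 window is chr5:154476917-154477216 on the minus strand, with the E-box starting at position -101 from the first base of the gene. The Sema3e window is chr4:21510325-21510624 on the minus strand, with the E-box at -14. That of Sema4b is chr1:143558547-143558846 on the plus strand, with the E-box at -96. The Islr2 window is chr8:67509932-67510231 and the Efna3 window chr2:177035789-177036088, both on the minus strand.
Epha8: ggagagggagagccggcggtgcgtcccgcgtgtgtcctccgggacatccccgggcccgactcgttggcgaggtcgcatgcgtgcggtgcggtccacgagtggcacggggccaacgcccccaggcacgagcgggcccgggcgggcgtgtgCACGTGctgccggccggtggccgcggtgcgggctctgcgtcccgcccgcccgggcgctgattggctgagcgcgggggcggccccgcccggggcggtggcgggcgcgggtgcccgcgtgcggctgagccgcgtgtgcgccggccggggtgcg
Sema3e: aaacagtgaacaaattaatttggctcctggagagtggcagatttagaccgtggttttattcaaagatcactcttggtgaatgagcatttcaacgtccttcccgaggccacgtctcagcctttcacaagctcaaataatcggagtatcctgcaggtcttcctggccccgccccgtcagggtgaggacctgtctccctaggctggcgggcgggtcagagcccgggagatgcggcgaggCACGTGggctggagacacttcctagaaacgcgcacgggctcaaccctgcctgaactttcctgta
Sema4b: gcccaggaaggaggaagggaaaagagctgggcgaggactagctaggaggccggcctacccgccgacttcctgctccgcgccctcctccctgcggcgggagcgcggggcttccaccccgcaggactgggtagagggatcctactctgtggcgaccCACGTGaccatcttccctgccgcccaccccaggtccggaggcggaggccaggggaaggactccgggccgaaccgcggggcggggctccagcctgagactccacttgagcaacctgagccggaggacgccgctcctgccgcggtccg
Islr2: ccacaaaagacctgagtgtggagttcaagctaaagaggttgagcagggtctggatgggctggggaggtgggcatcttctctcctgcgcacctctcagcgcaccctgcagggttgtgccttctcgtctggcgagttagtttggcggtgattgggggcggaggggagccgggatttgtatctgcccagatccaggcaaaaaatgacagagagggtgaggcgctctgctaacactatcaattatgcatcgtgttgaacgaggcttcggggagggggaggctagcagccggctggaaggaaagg
Efna3: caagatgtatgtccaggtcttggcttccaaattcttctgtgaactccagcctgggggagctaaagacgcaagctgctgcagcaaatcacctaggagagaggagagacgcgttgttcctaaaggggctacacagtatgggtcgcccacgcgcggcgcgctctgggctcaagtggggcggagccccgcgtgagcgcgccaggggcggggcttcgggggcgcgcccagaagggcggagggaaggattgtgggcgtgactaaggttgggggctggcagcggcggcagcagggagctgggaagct

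The first question was which guidance genes differed between ChREBPβ and GFP cells at each glucose level. At 2 mM, 22 of the 65 members were called higher, Epha3 among them, and 26 lower (33.8% and 40.0%). Of all 14669 tested genes, 21.0% were called higher and 23.2% lower there. At 11 mM, 23 members were higher and 21 lower (35.4% and 32.3%), beside 14.3% and 19.1% of all tested genes. The median log2 fold change of the members was -0.07 at 2 mM and 0.02 at 11 mM, both close to the medians of -0.02 over all tested genes, so the members moved in both directions. Changes of at least 2-fold were mostly increases, with 14 members higher (Epha3 among them) and 7 lower at 2 mM and 13 higher and 4 lower at 11 mM. Of all tested genes, 748 rose and 708 fell by as much at 2 mM, and 571 rose and 421 fell at 11 mM. Ligands and receptors were both divided. At 2 mM, 10 ligands were higher and 14 lower, and 11 receptors were higher (Epha3 among them) and 12 lower. At 11 mM the numbers were 12 and 11 for ligands and 10 and 10 for receptors.

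The ChREBPβ comparisons at 2 and 11 mM use separate libraries. Of the 22 members higher at 2 mM and the 23 higher at 11 mM, 20 were the same genes (90.9% and 87% of each list), beside 1765 of 3075 and 2102 among all tested genes (57.4% and 84%). Of the 26 and 21 members that were lower, 21 were the same (80.8% and 100%), beside 2379 of 3401 and 2802 (70% and 84.9%). No member and 2 of all tested genes were called in opposite directions, and 14 members and 7435 genes were called at neither level.

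**Figure D1:**
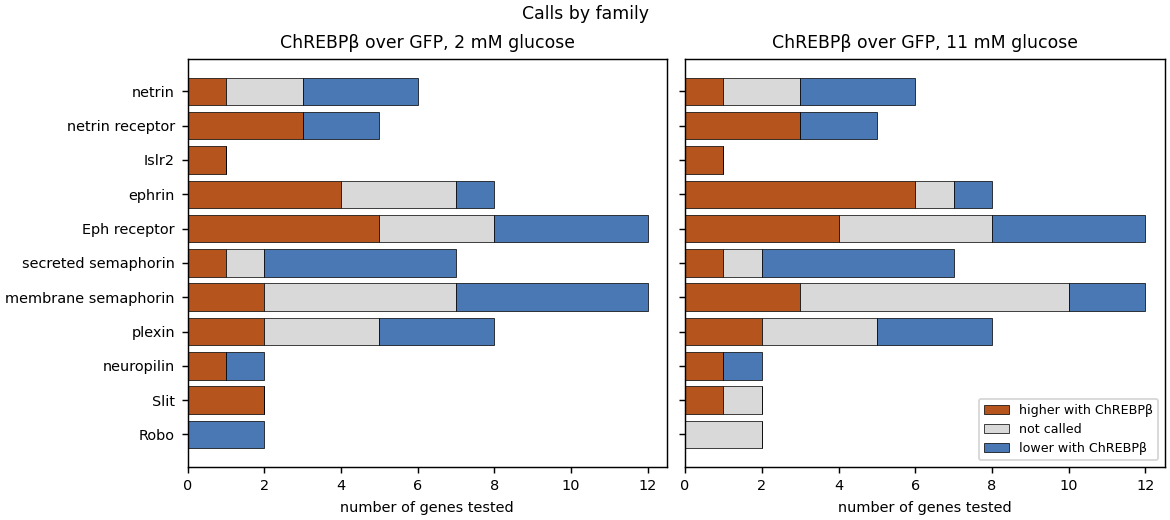
Number of tested genes in each family called higher (brown), called lower (blue) or not called (grey) with ChREBPβ over GFP, at 2 mM glucose (left) and 11 mM glucose (right), with the calls defined above. Of 8 ephrins, 4 were higher at 2 mM and 6 at 11 mM, and the secreted semaphorins were mostly lower, with 5 of 7 at both levels.

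**Figure D2:**
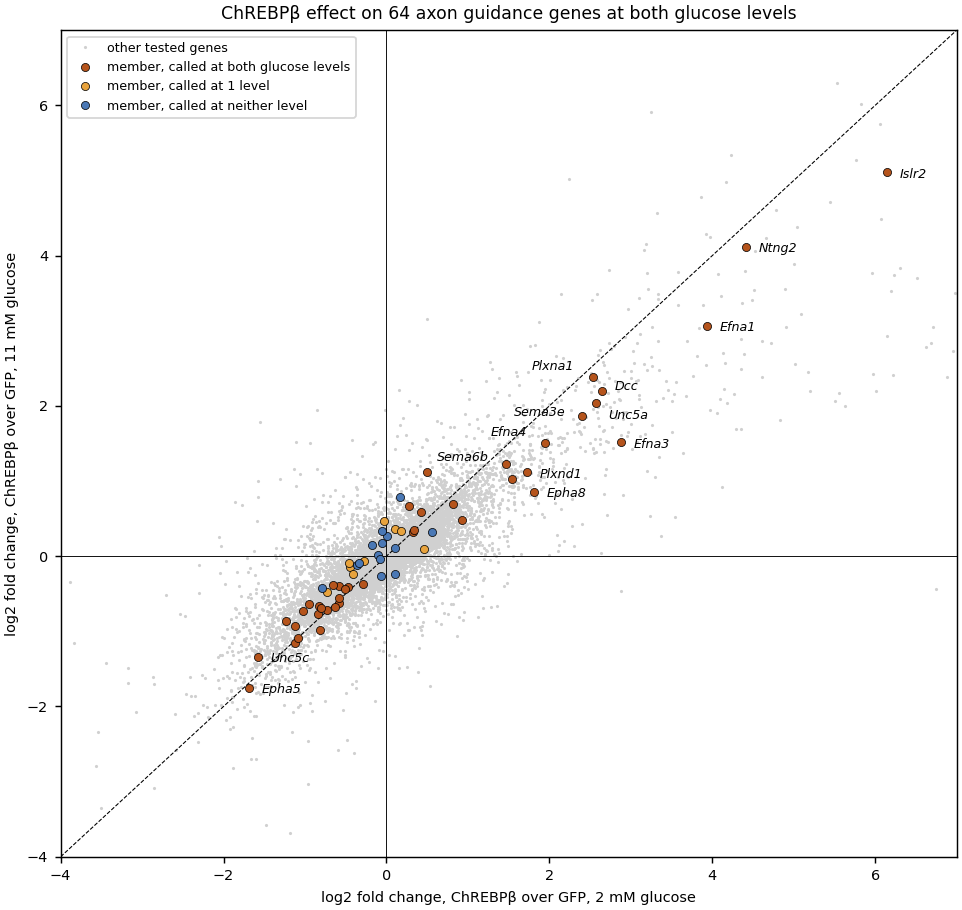
Log2 fold change of ChREBPβ over GFP at 2 mM glucose (x axis) and 11 mM glucose (y axis) for 64 members (coloured by whether they were called at both levels, at 1 or at neither) and for 14591 other tested genes (grey); the dashed line marks equal values, 13 other genes lie outside the axes, and Epha3 is left out for its low counts. Islr2, Ntng2 and Efna1 lie farthest to the upper right, and Epha5 and Unc5c farthest to the lower left among the members.

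Netrin receptors were divided by gene. DCC is the receptor through which netrin-1 attracts axons, and its RNA rose strongly with ChREBPβ. Dcc was at 1.40, 1.49 and 1.54 CPM in GFP cells at 2 mM and at 8.70, 9.52 and 9.49 CPM with ChREBPβ. In 11 mM glucose the values were 2.39, 2.49 and 2.24 CPM with GFP and 11.9, 10.5 and 10.0 CPM with ChREBPβ. The lowest ChREBPβ library was thus well above the highest GFP library at either glucose level, with a log2 fold change of 2.65 at 2 mM (SE 0.12 by edgeR, adjusted p = 4.16e-13) and of 2.19 at 11 mM (SE 0.11 by edgeR, adjusted p = 9.73e-13).

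The UNC5 proteins are netrin receptors that mediate repulsion. Unc5a rose from 77.3, 80.5 and 85.7 CPM with GFP to 477, 475 and 498 CPM in ChREBPβ cells at 2 mM, and from 122, 124 and 128 CPM to 509, 526 and 506 CPM at 11 mM. The groups did not overlap, and the fold was 5.95 at 2 mM (log2 2.57, SE 0.05 by edgeR, adjusted p = 1.28e-19) and 4.12 at 11 mM (log2 2.04, SE 0.04 by edgeR, adjusted p = 3.82e-18). In the RefSeq table the span of Unc5a overlaps that of Hk3. Overlaps with some other gene were found for 35 of the 65 members, for 3 of them with a named protein-coding gene. Whether reads were counted by strand is not given in the sources used here. Hk3 itself was at no more than 1.30 CPM in any library and was called higher with ChREBPβ at both levels, as Unc5a was. Unc5c went the other way. It was at 84.4, 75.8 and 84.6 CPM with GFP and at 28.0, 28.9 and 25 CPM in ChREBPβ cells at 2 mM. With 11 mM glucose the levels were 54.3, 62.0 and 55.5 CPM with GFP and 24.8, 23.5 and 19.7 CPM with ChREBPβ. All ChREBPβ libraries were below all GFP libraries, with a log2 fold change of -1.58 at 2 mM (SE 0.08 by edgeR, adjusted p = 1.05e-12) and of -1.34 at 11 mM (SE 0.08 by edgeR, adjusted p = 1.87e-11). Unc5d was also called lower at both levels, with log2 fold changes of -0.65 and -0.39, and Unc5b higher at both, with 0.27 and 0.66, although its call at 2 mM was not made with library totals alone.

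Among the netrins themselves, 1 of 6 was called higher and 3 lower at both glucose levels. The RNA of netrin-1, the secreted ligand of DCC and UNC5, fell. Ntn1 was at 8.67, 9.50 and 7.79 CPM with GFP and at 3.62, 4.38 and 3.80 CPM in ChREBPβ cells at 2 mM, and at 8.38, 9.02 and 7.95 CPM and 3.99, 3.75 and 3.66 CPM at 11 mM. In each of the 6 ChREBPβ libraries it was lower than in all 6 GFP libraries, and glucose moved it little. Its log2 fold change was -1.13 at 2 mM (SE 0.11 by edgeR, adjusted p = 3.95e-08) and -1.15 at 11 mM (SE 0.11 by edgeR, adjusted p = 2.17e-08).

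Netrin-G1 and netrin-G2 are held in the membrane by a lipid anchor and do not bind DCC. Their RNAs moved in opposite directions. Ntng2 was near 1 CPM in GFP cells at 2 mM (1.07, 1.08 and 0.801 CPM) and at 18.5, 22.0 and 22.1 CPM with ChREBPβ. With 11 mM glucose the levels were 1.55, 1.63 and 1.5 CPM with GFP and 28.9, 26.0 and 26.4 CPM with ChREBPβ. This was a rise of 21.4-fold at 2 mM (log2 4.42, SE 0.12 by edgeR, adjusted p = 1.23e-16) and of 17.4-fold at 11 mM (log2 4.12, SE 0.10 by edgeR, adjusted p = 7.06e-17). Ntng1 was at 1.07, 1.22 and 1.67 CPM with GFP and 0.609, 0.570 and 0.680 CPM in ChREBPβ cells at 2 mM, and at 1.77, 1.79 and 1.84 CPM and 0.989, 0.947 and 0.603 CPM at 11 mM. It fell by 1.09 on the log2 scale at 2 mM (SE 0.26 by edgeR, adjusted p = 0.00141) and by 1.08 at 11 mM (SE 0.23 by edgeR, adjusted p = 0.000543), with no overlap of the ChREBPβ and GFP libraries at either level.

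Ntn4, a netrin of basement membranes, was low throughout. With GFP it was at 1.40, 1.46 and 1.96 CPM at 2 mM and at 0.951, 1.37 and 0.973 CPM at 11 mM, and with ChREBPβ at 0.788, 0.962 and 0.609 CPM and at 0.733, 0.509 and 0.731 CPM. At each glucose level all ChREBPβ libraries were below all GFP libraries. Its log2 fold change was -1.03 at 2 mM (SE 0.27 by edgeR, adjusted p = 0.00261) and -0.72 at 11 mM (SE 0.27 by edgeR, adjusted p = 0.0298). The call at 11 mM was lost without GFP 11 mM replicate b (log2 -0.55, edgeR adjusted p = 0.14) or ChREBPβ 11 mM replicate b (log2 -0.57, edgeR adjusted p = 0.125), and with counts thinned to the smallest total (log2 -0.33, edgeR adjusted p = 0.44). Ntn3 and Ntn5 were called at neither level.

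Islr2, also known as Linx, a membrane protein of neurons that works with guidance and growth factor receptors, had the largest log2 fold change of all members in both comparisons. It was at 0.331, 0.379 and 0.897 CPM in GFP cells at 2 mM and at 36.2, 39.4 and 39.1 CPM with ChREBPβ. In 11 mM glucose the values were 1.02, 1.21 and 1.63 CPM with GFP and 42.8, 45.3 and 46.0 CPM with ChREBPβ. Every ChREBPβ library was more than an order of magnitude above every GFP library. The fold was 70.8 at 2 mM (log2 6.15, SE 0.16 by edgeR, adjusted p = 3.1e-17) and 34.5 at 11 mM (log2 5.11, SE 0.12 by edgeR, adjusted p = 3.94e-17). The fold at 2 mM rests on 9 to 28 counts in the GFP libraries, and leaving out 1 library moved its log2 value between 5.916 and 6.735.

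The neighbours of Islr2 on the chromosome, in RefSeq order, were examined after these values were seen. Islr, the next gene on one side, had at most 3 counts in any GFP library at 2 mM and was at 7.81, 9.14 and 8.93 CPM with ChREBPβ. At 11 mM it was at 0.111, 0.214 and 0.0634 CPM with GFP and at 9.60, 8.89 and 10.4 CPM with ChREBPβ. Beyond it, Stra6 was at 0.133, 0.214 and 0.148 CPM with GFP and at 1.45, 1.14 and 2.01 CPM in ChREBPβ cells at 11 mM. Ccdc33, the next again, changed by 4.13 (log2) at 2 mM (SE 0.20 by edgeR, adjusted p = 7.6e-13) and of 2.71 at 11 mM (SE 0.16 by edgeR, adjusted p = 1.54e-11). The gene after it, Cyp11a1, was called at neither level. On the other side of Islr2, Pml changed by 0.41 (log2) at 11 mM (SE 0.10 by edgeR, adjusted p = 0.00146), was not called at 2 mM, and Stoml1 was called at neither level. The run of strong increases was therefore Ccdc33, Stra6, Islr and Islr2.

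**Figure D3:**
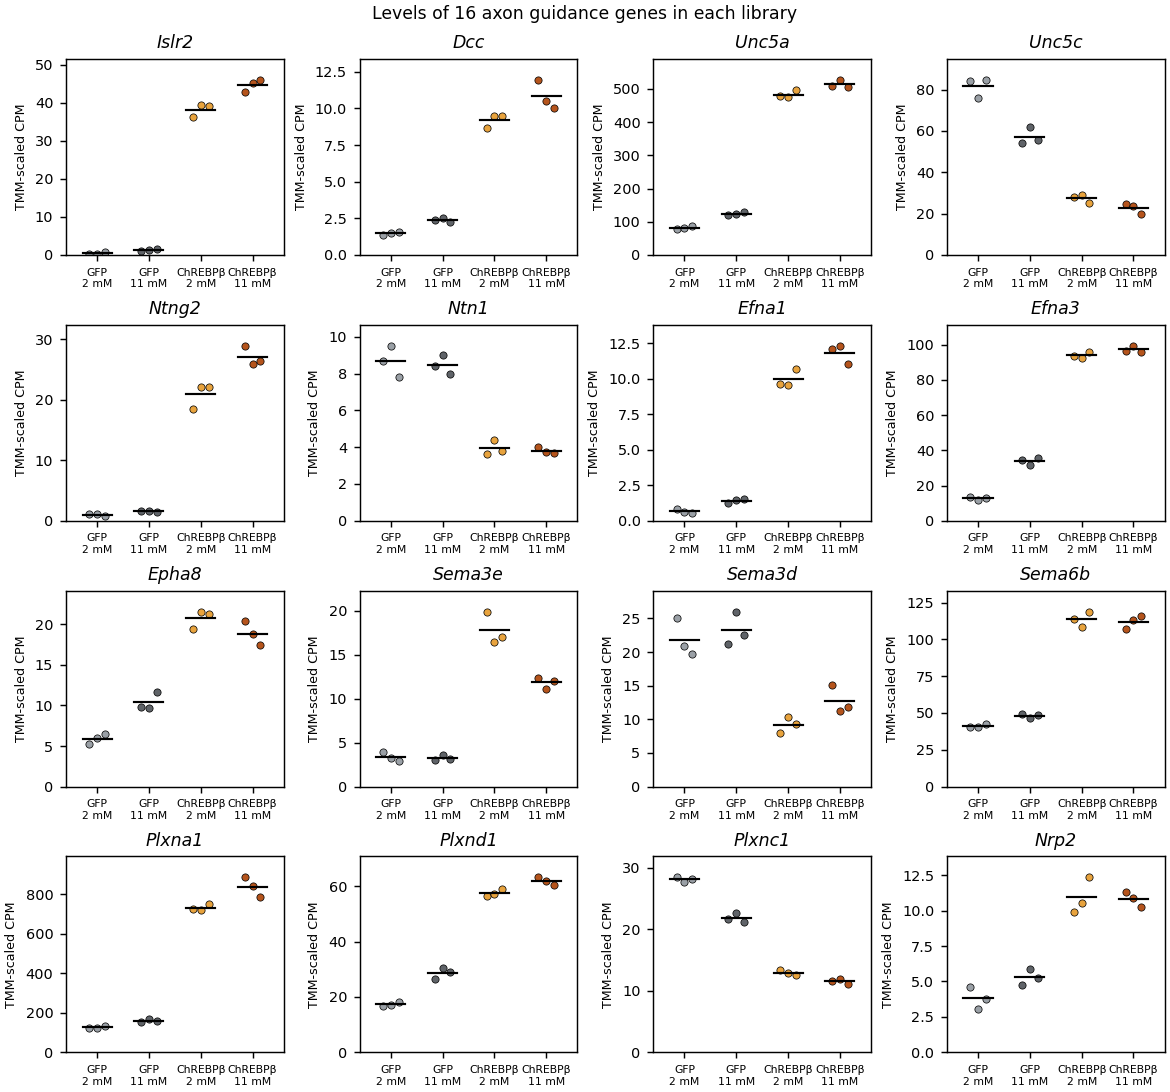
TMM-scaled CPM (y axis, from 0) of 16 named members in each of the 12 libraries, by group (x axis); points are single libraries and lines the mean of 3. In 12 of the panels every ChREBPβ library lies above every GFP library, and in those of Unc5c, Ntn1, Sema3d and Plxnc1 every ChREBPβ library lies below; these genes were picked for large changes, and of all 65 members 21 lay above and 19 below in this way (32.3% and 29.2%), beside 17.9% and 17.6% of all tested genes.

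Ephrins are the membrane-bound ligands of the Eph receptor tyrosine kinases, the A class held by a lipid anchor and the B class crossing the membrane. Of 8 ephrins tested, 4 were called higher and 1 lower at 2 mM, and 6 higher and 1 lower at 11 mM. Scaled by library totals alone, 3 were higher and 1 lower at 2 mM, and 5 higher and 1 lower at 11 mM. Efna3 was at 13.8, 11.8 and 12.9 CPM with GFP and at 93.4, 92.2 and 96.1 CPM in ChREBPβ cells at 2 mM. At 11 mM it was at 34.5, 31.9 and 35.5 CPM with GFP and at 96.6, 99.3 and 96.0 CPM with ChREBPβ. The ChREBPβ libraries sat at nearly the same level at both glucose concentrations, whereas the GFP libraries were higher at 11 mM. The log2 fold change was 2.88 at 2 mM (SE 0.06 by edgeR, adjusted p = 1.2e-18) and 1.52 at 11 mM (SE 0.05 by edgeR, adjusted p = 5.15e-15).

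Efna1 had a larger ratio than Efna3. It was at 0.808, 0.583 and 0.577 CPM with GFP and at 9.67, 9.57 and 10.7 CPM in ChREBPβ cells at 2 mM, and at 1.28, 1.45 and 1.5 CPM and 12.1, 12.3 and 11.1 CPM at 11 mM. The groups were far apart, with a rise of 15.4-fold at 2 mM (log2 3.94, SE 0.15 by edgeR, adjusted p = 1.05e-14) and of 8.39-fold at 11 mM (log2 3.07, SE 0.12 by edgeR, adjusted p = 2.32e-14). Efna4, whose mean was just under 1 CPM, was at 0.404, 0.379 and 0.352 CPM with GFP and at 1.72, 1.5 and 1.24 CPM in ChREBPβ cells at 2 mM. At 11 mM it was at 0.332, 0.589 and 0.719 CPM with GFP and at 1.43, 1.46 and 1.79 CPM with ChREBPβ. It rose at both levels, with a log2 fold change of 1.95 (SE 0.30 by edgeR, adjusted p = 1.66e-05) and of 1.51 (SE 0.26 by edgeR, adjusted p = 7.38e-05).

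Efna1, Efna3 and Efna4 lie beside each other in RefSeq's gene order, and all were called higher at both glucose levels. Genes flanking these 3 were examined after that was seen. Slc50a1, the next gene beyond Efna1, was called higher, with a log2 fold change of 0.69 at 2 mM (SE 0.07 by edgeR, adjusted p = 3.55e-08) and of 0.40 at 11 mM (SE 0.06 by edgeR, adjusted p = 3.03e-05). On the other side, Adam15, the next gene beyond Efna4, was called lower, with -0.38 at 2 mM (SE 0.04 by edgeR, adjusted p = 1.1e-07) and -0.34 at 11 mM (SE 0.04 by edgeR, adjusted p = 8.6e-07). Dpm3 and Krtcap2, further along past Slc50a1, were called at neither level. Trim46, the gene after them, and Dcst1, Dcst2 and Zbtb7b, which follow Adam15, were called higher at both levels, Dcst1 from at most 6 counts in any GFP library.

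The other ephrins moved less. Efna2 was called higher at both levels, with log2 fold changes of 0.32 and 0.33, although neither call was made when counts were scaled by library totals alone. Efnb2, a B-class ligand, was the single ephrin called lower, with -0.85 at 2 mM and -0.77 at 11 mM. Efnb1 and Efnb3 were called higher at 11 mM alone. For Efnb1 the log2 fold change at 11 mM was 0.36 and 0.11 at 2 mM, a difference of 0.25 that stayed under the minimum change (edgeR adjusted p = 0.0399) but was called with RLE factors and with library totals alone. Efna5 was called at neither level.

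The Eph receptors were evenly divided. At 2 mM, 5 of 12 were called higher, Epha3 among them, and 4 lower. At 11 mM, 4 were higher and 4 lower. Scaled by library totals alone, the numbers were 3 higher and 4 lower at both levels, with Epha3 again counted as higher at 2 mM. The receptor Epha8 rose from 5.25, 6.03 and 6.44 CPM with GFP to 19.4, 21.6 and 21.3 CPM in ChREBPβ cells at 2 mM, and from 9.80, 9.75 and 11.7 CPM to 20.4, 18.8 and 17.4 CPM at 11 mM. Libraries with and without ChREBPβ did not overlap, and the log2 fold change was 1.81 at 2 mM (SE 0.10 by edgeR, adjusted p = 3.42e-12) and 0.86 at 11 mM (SE 0.09 by edgeR, adjusted p = 6.62e-08).

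Epha4, a receptor that binds ephrins of both classes, was at 3.12, 2.42 and 2.02 CPM with GFP and at 4.22, 3.15 and 3.44 CPM in ChREBPβ cells at 2 mM, and at 1.92, 2.38 and 1.59 CPM and 4.47, 3.88 and 4.35 CPM at 11 mM. At 11 mM it was higher in each ChREBPβ library than in any GFP library, with a log2 fold change of 1.119 (SE 0.17 by edgeR, adjusted p = 1.86e-05). At 2 mM the lowest ChREBPβ library lay just above the highest GFP library, with 0.50 (SE 0.18 by edgeR, adjusted p = 0.0215). That call was lost without GFP 2 mM replicate b (log2 0.48, edgeR adjusted p = 0.0619), GFP 2 mM replicate c (log2 0.37, edgeR adjusted p = 0.114) or ChREBPβ 2 mM replicate a (log2 0.40, edgeR adjusted p = 0.0857), and with library totals alone (log2 0.40, edgeR adjusted p = 0.0657).

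Epha5 was the Eph receptor with the strongest decrease. It was at 1.76, 2.10 and 2.31 CPM with GFP and 0.644, 0.499 and 0.770 CPM in ChREBPβ cells at 2 mM, and at 1.22, 1.07 and 1.10 CPM and 0.256, 0.456 and 0.292 CPM at 11 mM. The ChREBPβ libraries were all below the GFP libraries, with a log2 fold change of -1.69 at 2 mM (SE 0.26 by edgeR, adjusted p = 1.28e-05) and of -1.75 at 11 mM (SE 0.28 by edgeR, adjusted p = 3.26e-05). Epha1, Epha7 and Ephb6 were also called lower at both levels, with log2 fold changes between -0.63 and -0.40. The span of Epha1 overlaps that of Zyx, which was at 13.6 to 15.5 CPM and called at neither level. Called higher at both were Ephb2 and Ephb3, with values between 0.34 and 0.58, although neither call of Ephb2 was made with library totals alone. Epha3 had at most 3 counts in any GFP library at 2 mM, where no fold is given, and was between 0.322 and 0.695 CPM with ChREBPβ there. At 11 mM it was at 0.0664, 0.161 and 0.169 CPM with GFP and at 0.341, 0.246 and 0.311 CPM with ChREBPβ and was not called (edgeR adjusted p = 0.0665). Epha2, Epha10 and Ephb1 were called at neither level.

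Class 3 semaphorins are secreted ligands, most of which act through a neuropilin and a plexin together, and they were mostly lower with ChREBPβ. Of 7 tested, 5 were called lower and 1 higher at both glucose levels, under all of the scalings tried. The exception was Sema3e, which binds plexin-D1 directly. It was at 3.93, 3.21 and 2.95 CPM with GFP and at 19.9, 16.4 and 17.0 CPM in ChREBPβ cells at 2 mM, and at 3.08, 3.59 and 3.13 CPM and 12.4, 11.2 and 12.1 CPM at 11 mM. All ChREBPβ libraries were above all GFP libraries, and the log2 fold change was 2.40 at 2 mM (SE 0.11 by edgeR, adjusted p = 4.36e-13) and 1.87 at 11 mM (SE 0.11 by edgeR, adjusted p = 1.77e-11).

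Sema3d, in contrast, was at 25, 20.9 and 19.6 CPM with GFP and at 7.98, 10.3 and 9.29 CPM in ChREBPβ cells at 2 mM, and at 21.1, 26.0 and 22.5 CPM and 15.1, 11.2 and 11.9 CPM at 11 mM. It was lower in each ChREBPβ library than in any GFP library, with a log2 fold change of -1.23 at 2 mM (SE 0.12 by edgeR, adjusted p = 3.4e-08) and of -0.86 at 11 mM (SE 0.11 by edgeR, adjusted p = 2.25e-06). Sema3a, Sema3c, Sema3f and Sema3g were called lower at both levels, with log2 fold changes from -0.80 to -0.41. Sema3b was called at neither.

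Of the 12 membrane-bound or membrane-anchored semaphorins of classes 4 to 7, 2 were called higher and 5 lower at 2 mM and 3 higher and 2 lower at 11 mM, the last split turning to 2 higher and 3 lower with library totals alone. Sema6b, a transmembrane ligand of A-class plexins, rose the most. Its levels were 40.7, 40.4 and 42.5 CPM with GFP and 114, 108 and 119 CPM in ChREBPβ cells at 2 mM, and 49.0, 46.6 and 48.6 CPM and 107, 113 and 116 CPM at 11 mM. The 6 ChREBPβ libraries were all above the 6 GFP libraries, with a log2 fold change of 1.47 at 2 mM (SE 0.05 by edgeR, adjusted p = 2.42e-15) and of 1.22 at 11 mM (SE 0.05 by edgeR, adjusted p = 4.09e-14). Sema4b was also called higher at both levels, with 0.81 and 0.70. Sema4a and Sema6c were called lower at both. Sema4c, Sema4d, Sema6a and Sema7a were called at neither.

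Plexins are the signalling receptors for semaphorins, and neuropilins the co-receptors for class 3. Of 8 plexins, 2 were called higher and 3 lower at both glucose levels. Plxna1 was at 124, 121 and 132 CPM with GFP and at 725, 720 and 751 CPM in ChREBPβ cells at 2 mM, and at 153, 170 and 160 CPM and 886, 842 and 785 CPM at 11 mM. This gap between groups was far larger than the spread within them, with a fold of 5.82 at 2 mM (log2 2.54, SE 0.05 by edgeR, adjusted p = 1.18e-18) and of 5.21 at 11 mM (log2 2.38, SE 0.05 by edgeR, adjusted p = 4.8e-18). Plxnd1, the receptor of Sema3e, rose as well, from 16.9, 17.2 and 18.1 CPM to 56.4, 57.2 and 58.9 CPM at 2 mM and from 26.4, 30.3 and 28.9 CPM to 63.1, 61.8 and 60.5 CPM at 11 mM. Its log2 fold change was 1.73 at 2 mM (SE 0.06 by edgeR, adjusted p = 1.77e-15) and 1.117 at 11 mM (SE 0.05 by edgeR, adjusted p = 6.96e-13), with no overlap of the groups.

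Plxnc1, which binds Sema7a, fell. It was at 28.4, 27.7 and 28.2 CPM with GFP and at 13.3, 12.9 and 12.6 CPM in ChREBPβ cells at 2 mM, and at 21.8, 22.7 and 21.2 CPM and 11.6, 12 and 11.1 CPM at 11 mM. The log2 fold change was -1.122 at 2 mM (SE 0.06 by edgeR, adjusted p = 4.72e-12) and -0.92 at 11 mM (SE 0.06 by edgeR, adjusted p = 1.04e-10), again without overlap. Plxna3 and Plxnb1 were the other plexins called lower, with log2 fold changes of -0.73 and -0.28 at 2 mM and of -0.72 and -0.37 at 11 mM. Plxna2, Plxna4 and Plxnb2 were called at neither level.

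The neuropilins separated. Nrp2 was at 4.59, 3.06 and 3.78 CPM with GFP and at 9.88, 10.6 and 12.3 CPM in ChREBPβ cells at 2 mM, and at 4.78, 5.86 and 5.27 CPM and 11.3, 10.9 and 10.2 CPM at 11 mM. All ChREBPβ libraries were higher, with a log2 fold change of 1.54 at 2 mM (SE 0.13 by edgeR, adjusted p = 3.65e-09) and of 1.03 at 11 mM (SE 0.12 by edgeR, adjusted p = 3.51e-07). Nrp1 was called lower at both levels, with -0.83 (SE 0.08 by edgeR, adjusted p = 3.73e-08) and -0.66 (SE 0.08 by edgeR, adjusted p = 5.15e-07).

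Slit proteins are secreted ligands of the Robo receptors. Slit1 was at 37.7, 34.9 and 40.1 CPM with GFP and at 71.3, 71.0 and 72.1 CPM in ChREBPβ cells at 2 mM, and at 49.4, 58.8 and 53.7 CPM and 79.1, 74.3 and 73.2 CPM at 11 mM. Each ChREBPβ library was above each GFP library, with a log2 fold change of 0.93 at 2 mM (SE 0.06 by edgeR, adjusted p = 1.15e-10) and of 0.49 at 11 mM (SE 0.06 by edgeR, adjusted p = 1.04e-06). Slit2 was called higher at 2 mM alone, with 0.46 there and 0.09 at 11 mM, and the difference between the levels did not pass the threshold (log2 -0.36, edgeR adjusted p = 0.0727). Robo1 and Robo2 were called lower at 2 mM, with log2 fold changes of -0.45 and -0.28, and not at 11 mM, with -0.14 and -0.07. For neither Robo1 (log2 0.30, edgeR adjusted p = 0.38) nor Robo2 (log2 0.21, edgeR adjusted p = 0.119) did the difference between the levels pass the threshold.

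Glucose alone also moved guidance genes in the control cells. From 2 to 11 mM with GFP, 16 members were called higher and 10 lower (24.6% and 15.4%), beside 10.2% and 10.0% of all tested genes. The largest of these changes, at least 2-fold each, were those of Efna3 (log2 1.41, SE 0.06 by edgeR, adjusted p = 2.07e-12), Islr2 (log2 1.26, SE 0.27 by edgeR, adjusted p = 0.00119) and Efna1 (log2 1.118, SE 0.19 by edgeR, adjusted p = 0.000146). That of Islr2 rests on 9 to 28 counts in the GFP libraries at 2 mM, from 0.331 to 0.897 CPM. Plxnd1 (log2 0.71), Dcc (0.68), Ntng2 (0.66) and Unc5a (0.62) were called higher too. Among those called lower were Epha5 (log2 -0.87), Sema4a (-0.76), Efnb3 (-0.58) and Unc5c (-0.51). This comparison shares its GFP 2 mM libraries with the ChREBPβ comparison at 2 mM, so the values stand side by side and no agreement between them is counted.

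In the cells with ChREBPβ, 7 members were called higher and 5 lower from 2 to 11 mM (10.8% and 7.69%), beside 0.988% and 2.88% of all tested genes. None of these 12 changes reached 2-fold. The members higher at 11 mM were Epha2, Sema6a, Sema3a, Sema3c, Sema3d, Ntng2 and Nrp1, and the lower ones Ntn3, Plxna3, Sema3e, Sema4a and Unc5c. The call of Nrp1 was lost with library totals alone and that of Unc5c with RLE factors. Epha2, an Eph receptor that ChREBPβ did not move past the threshold, had the largest rise (log2 0.79, SE 0.13 by edgeR, adjusted p = 0.000498), from 3.69, 3.15 and 3.10 CPM to 5.73, 5.46 and 5.74 CPM. With GFP it also rose, from 2.94, 3.99 and 3.21 CPM to 5.57, 4.79 and 4.65 CPM (log2 0.56, SE 0.13 by edgeR, adjusted p = 0.00295). Sema6a behaved alike, with a log2 change of 0.72 in the ChREBPβ cells (SE 0.14 by edgeR, adjusted p = 0.00266) and of 0.47 in the GFP cells (SE 0.14 by edgeR, adjusted p = 0.0152). Sema3a and Sema3c were lower with ChREBPβ at each glucose level and higher with 11 mM glucose under each virus.

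Whether the ChREBPβ effect depended on glucose was tested directly as the difference of the log2 fold changes at 11 and 2 mM. Of the 65 members, 12 were called, 4 with a positive and 8 with a negative difference (6.15% and 12.3%), beside 1.56% and 4.74% of all tested genes. The 8 with a negative difference, Efna3, Islr2, Epha8, Efna1, Plxnd1, Sema3e, Unc5a and Slit1, were all higher with ChREBPβ at both glucose levels, by less at 11 mM. The call of Sema3e was lost on leaving out any of 11 libraries and with RLE factors, library totals or thinned counts. Those of Islr2 and Efna1 were lost without any of 5 and of 3 single libraries, and the difference of Islr2 ranged from -1.626 to -0.807. Efna3 had the largest difference (log2 -1.36, SE 0.08 by edgeR, adjusted p = 6.04e-10). Its mean level in the ChREBPβ libraries hardly changed with glucose (log2 0.05, SE 0.05 by edgeR, adjusted p = 0.614), and the same holds for Unc5a (log2 0.09, SE 0.04 by edgeR, adjusted p = 0.223) and Plxnd1 (log2 0.10, SE 0.05 by edgeR, adjusted p = 0.252), while all of them rose with glucose in GFP cells. Sema3e was different: it did not pass the threshold with glucose in GFP cells (log2 -0.04, edgeR adjusted p = 0.851) and fell with glucose in ChREBPβ cells (log2 -0.58, SE 0.09 by edgeR, adjusted p = 0.000455).

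The 4 with a positive difference were Efnb3, Unc5b, Sema4f and Sema4a. The call of Sema4f was lost without any of 3 single libraries and that of Unc5b without 1, and both with thinned counts. Efnb3 was at 21.5, 22.9 and 25.7 CPM with GFP and at 21.6, 24.6 and 22.3 CPM in ChREBPβ cells at 2 mM, where the groups overlapped. At 11 mM it was at 16.5, 14.7 and 15.8 CPM with GFP and at 22.0, 21.5 and 21.2 CPM with ChREBPβ, where they did not (log2 0.46, SE 0.07 by edgeR, adjusted p = 2.19e-05). The level was thus lower with glucose in GFP cells and similar in ChREBPβ cells. Unc5b went from 13.2, 14.8 and 15.3 CPM to 17.7, 17.8 and 16.9 CPM in ChREBPβ cells at 2 mM and from 11.2, 11.6 and 11.8 CPM to 18.9, 18.6 and 17.2 CPM at 11 mM, a larger rise at 11 mM.

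Sema4a and Sema4f, transmembrane class 4 semaphorins, were called lower at 2 mM. At 11 mM Sema4a was called lower by a smaller change and Sema4f was not called. Sema4a was at 50.3, 48.0 and 51.9 CPM with GFP and at 26.0, 25 and 26.5 CPM in ChREBPβ cells at 2 mM, and at 30.7, 29.2 and 28.9 CPM and 19.2, 19.1 and 18.9 CPM at 11 mM. It was lower with ChREBPβ at each level and lower with glucose under each virus. Sema4f was at 18.0, 18.1 and 18.2 CPM with GFP and at 12.8, 13.0 and 13.7 CPM in ChREBPβ cells at 2 mM (log2 -0.46, SE 0.07 by edgeR, adjusted p = 9.34e-06). At 11 mM the GFP libraries were at 14.0, 15.7 and 15.0 CPM and the ChREBPβ libraries at 14.5, 14.0 and 13.4 CPM, and the groups overlapped.

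**Figure D4:**
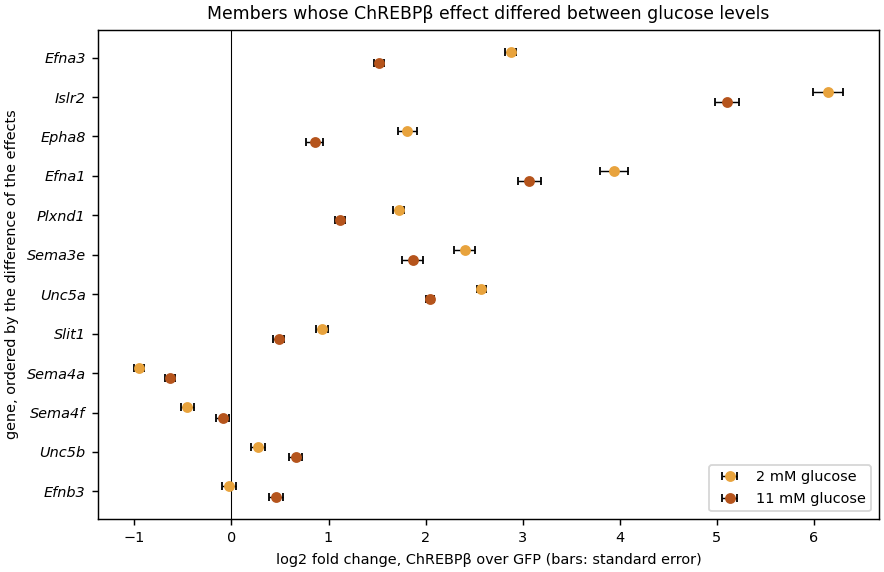
Log2 fold change of ChREBPβ over GFP (x axis) at 2 mM (light) and 11 mM glucose (dark) for the 12 members whose effects differed between the glucose levels by edgeR's interaction test; bars are standard errors, and genes are ordered from the most negative to the most positive difference. For the upper 8 genes the increase was smaller at 11 mM, from -1.36 for Efna3 to -0.45 for Slit1 on the log2 scale.

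The machinery that the receptors act on was followed in a list of signalling genes, among them co-receptors and further cues, kinases, adaptors and actin-binding proteins, of which 68 were tested. At 2 mM, 14 were called higher and 19 lower (20.6% and 27.9%), beside 21.0% and 23.2% of all tested genes. At 11 mM, 14 were higher and 15 lower (20.6% and 22.1%), beside 14.3% and 19.1%. With library totals alone the splits were 9 higher and 21 lower at 2 mM and 10 higher and 21 lower at 11 mM. The shares of all tested genes given here are with TMM factors. Library totals also moved the median log2 fold change of all tested genes down, to -0.116 at 2 mM and to -0.101 at 11 mM. The kinases gave 3 higher and 1 lower of 15 at 2 mM and 2 higher and 1 lower at 11 mM. The co-receptors and further cues gave 4 higher and 8 lower of 18 at 2 mM and 4 higher and 6 lower at 11 mM. These splits depended on scaling, with 2 higher and 9 lower at 2 mM and 2 higher and 10 lower at 11 mM under library totals alone, and 4 higher and 4 lower at 11 mM under RLE factors.

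Limk1, the kinase that phosphorylates the actin-severing protein cofilin downstream of semaphorins, was between 109 and 116 CPM with GFP and between 466 and 495 CPM in ChREBPβ cells at 2 mM, and between 143 and 148 CPM and 577 and 623 CPM at 11 mM. It rose 4.28-fold at 2 mM (log2 2.10, SE 0.04 by edgeR, adjusted p = 1.18e-18) and 4.16-fold at 11 mM (log2 2.06, SE 0.04 by edgeR, adjusted p = 2.72e-18). Dpysl3, a collapsin response mediator protein, rose from between 20.6 and 22.8 CPM to between 90.4 and 97.3 CPM at 2 mM (log2 2.14, SE 0.05 by edgeR, adjusted p = 1.18e-17) and from between 32.7 and 34.4 CPM to between 117 and 121 CPM at 11 mM (log2 1.83, SE 0.05 by edgeR, adjusted p = 1.05e-16). Both stood far outside the spread of their control libraries, and the rise of Dpysl3 was smaller at 11 mM (difference of log2 values -0.31, SE 0.07 by edgeR, adjusted p = 0.00779). Cntn2, an adhesion molecule of axons, was between 0.408 and 0.992 CPM with GFP and between 1.4 and 2.11 CPM in ChREBPβ cells at 2 mM, and between 0.669 and 0.841 CPM and 1.37 and 1.67 CPM at 11 mM. It rose without overlap, by a log2 fold change of 1.18 at 2 mM (SE 0.28 by edgeR, adjusted p = 0.00116) and of 1.05 at 11 mM (SE 0.26 by edgeR, adjusted p = 0.00206).

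The strongest decrease of the list was that of Cxcr4, a chemokine receptor whose mean was under 1 CPM. It was between 0.808 and 1.81 CPM with GFP and between 0.196 and 0.501 CPM with ChREBPβ in 2 mM glucose, and between 0.804 and 1.26 CPM and 0.298 and 0.477 CPM in 11 mM glucose. Its libraries did not overlap, with log2 fold changes of -1.91 (SE 0.37 by edgeR, adjusted p = 0.000193) and -1.42 (SE 0.35 by edgeR, adjusted p = 0.00211). No other called decrease of the list reached 2-fold.

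Ablim3, an actin-binding protein, was between 7.96 and 10.1 CPM in the GFP libraries and between 4.49 and 5.47 CPM in the ChREBPβ libraries. It changed by -0.96 (log2) at 2 mM (SE 0.10 by edgeR, adjusted p = 9.94e-08) and of -0.79 at 11 mM (SE 0.10 by edgeR, adjusted p = 1.37e-06). Pak3, a kinase that acts on the cytoskeleton, was between 36.2 and 58.3 CPM in the GFP libraries and between 23.8 and 29.5 CPM in the ChREBPβ libraries, so neither gene overlapped. It had -0.77 at 2 mM (SE 0.09 by edgeR, adjusted p = 4.09e-07) and -0.85 at 11 mM (SE 0.09 by edgeR, adjusted p = 7.25e-08). Kdr, a VEGF receptor that pairs with neuropilins, ranged from 1.07 to 1.31 CPM with GFP and from 0.57 to 0.752 CPM in ChREBPβ cells at 2 mM, and from 1.47 to 1.8 CPM and 0.494 to 1.04 CPM at 11 mM. Its log2 fold changes were -0.81 (SE 0.28 by edgeR, adjusted p = 0.0196) and -0.98 (SE 0.25 by edgeR, adjusted p = 0.00275). Flrt2, a ligand of Unc5 receptors, ranged from 1.35 to 2.39 CPM with GFP and from 0.77 to 1.86 CPM in ChREBPβ cells at 2 mM, where the groups overlapped, and from 1.17 to 2.09 CPM and 0.841 to 1.33 CPM at 11 mM, where they overlapped too. It was called lower at 2 mM (log2 -0.89, SE 0.33 by edgeR, adjusted p = 0.0261) and not at 11 mM (log2 -0.50, SE 0.32 by edgeR, adjusted p = 0.2), and the difference between the levels did not pass the threshold (log2 0.39, edgeR adjusted p = 0.703).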

How the data were processed

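RNA of 12 libraries was amplified and sequenced, and the authors deposited raw read counts per gene without normalization. Their processing notes name the build Rnor_6.0 and edgeR. The aligner and counting program are not given in the sources used here. The means of each group in the same table were not used. An entry without a gene name (0.0043% to 0.00601% of a library) was left out. R 4.3.3 with edgeR 4.0.16 (filterByExpr by group, TMM, 1 quasi-likelihood fit of all 12 libraries) tested 14669 genes, with Benjamini-Hochberg adjustment over all of them in each comparison. Standard errors are the log2 fold change divided by the square root of F. The fits were tested on simulated data. Alternatives were DESeq2 1.42.0, RLE factors, library totals, other filters and minimum changes, a replicate block, fits of 2 groups, thinned counts and leaving out each library.

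Members and lists were chosen with earlier results of these data known. Named genes are members with a 2-fold called change in a ChREBPβ comparison and a mean of at least 1 CPM (Efna4 and Epha3 were below it), members called in the interaction, and the 3 largest called increases and decreases of the signalling list in each ChREBPβ comparison, at a mean of 1 CPM or more. Cxcr4, below that mean, was added later for its larger decrease. No transcript lengths were at hand, so levels of members are not ranked, the most abundant member of each family is not named, and the highest marker of a set is by CPM alone. Promoter windows and gene order come from RefSeq (GRCr8). The counts of 1 group of the signalling list are not reported.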

Additional observations from a re-analysis of the deposited data

Results flagged for a closer look

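The ChREBPβ effect on 12 members differed between 11 and 2 mM glucose by edgeR's test of the difference. In log2 units, negative where the effect was lower at 11 mM, the differences were -1.36 for Efna3, -1.04 for Islr2, -0.96 for Epha8, -0.87 for Efna1, -0.61 for Plxnd1, -0.54 for Sema3e, -0.53 for Unc5a and -0.45 for Slit1. They were 0.49 for Efnb3, 0.39 for Unc5b, 0.37 for Sema4f and 0.32 for Sema4a.

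Of these calls, 7 held without any of the 12 libraries in turn, and those of Sema3e, Islr2, Efna1, Sema4f and Unc5b did not. The call of Sema3e (edgeR adjusted p = 0.0451) was lost on leaving out each of 11 libraries, all but GFP 2 mM replicate a, with differences from -0.59 to -0.45 and adjusted p from 0.05 to 0.122. That of Islr2 (edgeR adjusted p = 0.029) was lost without GFP 2 mM replicate a (log2 -0.82) or b (-0.81), GFP 11 mM replicate c (-0.81), or ChREBPβ 2 mM replicate b (-1.01) or c (-1.02). Without the remaining libraries it reached -1.63. That of Efna1 (edgeR adjusted p = 0.0154) was lost without GFP 2 mM replicate b (-0.79) or c (-0.80) or GFP 11 mM replicate c (-0.82). That of Sema4f (edgeR adjusted p = 0.0204) was lost without GFP 11 mM replicate a (0.32), ChREBPβ 2 mM replicate b (0.35) or ChREBPβ 11 mM replicate a (0.34). That of Unc5b (edgeR adjusted p = 0.0177) was lost without ChREBPβ 2 mM replicate c (0.37).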

How the results depend on the processing

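The numbers of members and signalling genes called stayed within 1.5 times the reported ones in 62 of 69 alternatives and in all 84 fits without 1 library. The 7 exceptions all came from requiring a 2-fold change, which by construction keeps fewer genes. With it, the members called were 21 at 2 mM, 17 at 11 mM, 3 with glucose in GFP cells, 0 with glucose in ChREBPβ cells and 2 in the interaction, and the signalling genes 5 at 2 mM and 4 at 11 mM. For the 0, edgeR gave 0 members with a 2-fold change at an unadjusted p under 0.05, and DESeq2 gave 0 with a 2-fold change at an adjusted p under 0.05. Leaving out 1 library gave 45 to 48 members at 2 mM, 41 to 45 at 11 mM, 23 to 28 with glucose in GFP cells, 8 to 12 with glucose in ChREBPβ cells and 9 to 13 in the interaction, and 29 to 34 and 26 to 30 signalling genes.

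With the replicate letter as a block, 48, 44, 26, 12 and 12 members and 33 and 30 signalling genes were called. Libraries sharing a letter did not deviate together (r from -0.114 to 0.0644 over 18 pairs), so the letters were not taken as pairs.

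Single genes were followed only for the 52 results of named members and not in every alternative. The 2-fold minimum was among those left out. No sign changed in the alternatives followed. Apart from leaving out 1 library, 397 values kept their side of the threshold there and 7 lost the call. Beside the losses given with Ntn4 and Epha4, these were the interaction of Sema3e with RLE factors (edgeR adjusted p = 0.0504), library totals (0.0612) and thinned counts (0.205), and those of Sema4f (0.0651) and Unc5b (0.0657) with thinned counts; the cause was not tested. Calls of other members also moved with scaling. With library totals those of Ephb2 and Efna2 at both glucose levels, Unc5b at 2 mM, Sema4g at 11 mM and Nrp1 with glucose in ChREBPβ cells were lost. Calls were gained for Plxna2 and Sema6a (lower at 2 mM), Sema6d (lower at 11 mM), Robo1 and Robo2 (lower with glucose in GFP and in ChREBPβ cells, respectively) and the interaction of Efnb1. With RLE factors the call of Unc5c with glucose in ChREBPβ cells was lost and the interaction of Efnb1 gained. Library totals moved the median of all genes from -0.0168 to -0.116 at 2 mM and from -0.0173 to -0.101 at 11 mM. Members below about 1 CPM rest on few counts and are measured least precisely.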
